A study of Mus musculus with 2 samples.

Results

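Cadherins and protocadherins were followed through the cell classes of the mouse hippocampus in wild-type animals and in animals homozygous for the Pigv341E knock-in allele. The group was every gene symbol of the deposited table that began with Cdh and ended in a number or that began with Pcdh, without Cdh13, and it held 34 of the 30223 genes. There were 4 type I cadherins, 13 type II cadherins, 4 other cadherins, 4 delta-1 protocadherins, 5 delta-2 protocadherins, 3 other protocadherins and 1 gene of the clustered protocadherins.

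Cadherins are single-pass membrane proteins whose extracellular repeats bind calcium and pair with cadherins of neighbouring cells, while type I and type II members hold the actin cytoskeleton through catenins. In the hippocampus they take part in sorting axons to subfields and in building synapses, and protocadherins, which do not use the classical catenin site, take part in recognition between neurites and in glial contacts. Pigv is a mannosyltransferase of the pathway that makes glycosylphosphatidylinositol (GPI) anchors. The members described here are transmembrane proteins, in contrast to Cdh13, the GPI-anchored cadherin.

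Each genotype was 1 library pooled from 8 hippocampi of 4 mice of strain C57Bl.6/J, dissociated mechanically in the cold, and both were sequenced together as droplet single-cell libraries. The control group was labelled wild-type, and the knock-in group was homozygous for Pigv341E, an allele made by CRISPR-Cas9 editing per the series title. Age and sex were not in the sources used here. With 1 library per genotype, genotype and library cannot be told apart, no p-value was computed, and every difference is a difference between 2 libraries.

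There were 7094 wild-type and 8836 knock-in cells. The deposited values had been corrected for depth, so that cell totals lay between 4846 and 14501, raw depth is unknown and a value of 1 need not be a molecule. This bears on low genes. Among wild-type microglia-like cells, 57.0% had a Cdh10 value of exactly 1, and Cdh10 was above 0 in 99.4% of the cells among the 25% with the fewest detected genes, against 31.1% among the 25% with the most. Shares of cells above 0 are therefore given sparingly, and levels carry the description. Levels sum the same values, so low levels share this limit. In microglia-like cells, 47.8% of wild-type and 26.2% of knock-in cells had a Cdh18 value of exactly 1. A level is what a gene contributes, per 10000, to the summed values of all cells in a class. The libraries shared 28 cell barcodes, 15 of them within the same class.

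Cells were grouped into 37 clusters without using any cadherin or protocadherin gene, and 11 named classes had at least 50 cells in each library. Names rest on marker genes and end in "-like". Pyramidal-like clusters were placed in CA1-like (815 wild-type and 950 knock-in cells), CA3-like (314 and 365) and cortex-like (105 and 224) groups, and cluster 7 (108 and 81) was placed in none. The cortex-like cluster held 7.82% of wild-type and 13.8% of knock-in pyramidal-like cells. Most dentate granule-like cells of the wild-type library fell in cluster 10 (1126 cells) and most of the knock-in library in cluster 9 (715 cells).

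Reference promoter sequences are shown for 3 type II genes that the results turn on: Cdh18, the member past the size rule between the libraries in the most classes, Cdh9, which separated the subfields, and Cdh20, which marked glia. They are RefSeq windows on GRCm38.p6, written 5′ to 3′ on the plus strand, of at most the 250 bases before the RefSeq start. A window was cut short where an annotated exon of the same gene began within it. Capitals mark matches to CCAAT on either strand.
Cdh18 chr15:23036213-23036454: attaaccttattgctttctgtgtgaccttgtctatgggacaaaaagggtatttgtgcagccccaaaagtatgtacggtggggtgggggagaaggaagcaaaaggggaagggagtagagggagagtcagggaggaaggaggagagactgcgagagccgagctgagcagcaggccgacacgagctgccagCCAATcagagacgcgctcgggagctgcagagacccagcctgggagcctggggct
Cdh9 chr15:16728665-16728755: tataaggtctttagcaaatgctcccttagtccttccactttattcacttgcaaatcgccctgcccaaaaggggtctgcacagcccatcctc
Cdh20 chr1:104768270-104768519: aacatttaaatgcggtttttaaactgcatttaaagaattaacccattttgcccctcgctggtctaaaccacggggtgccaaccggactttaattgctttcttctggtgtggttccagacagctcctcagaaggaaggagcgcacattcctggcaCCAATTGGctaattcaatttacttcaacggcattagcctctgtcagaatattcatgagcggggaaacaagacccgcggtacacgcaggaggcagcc
The Cdh18 window had a GC content of 57.4% with 8 CpG and 1 CCAAT match, and it lies inside the annotated gene, since longer transcripts of Cdh18 begin upstream. Of 32851 promoter windows cut to the same length, keeping the first bases of each, 33.2% hold CCAAT. The Cdh9 window (GC 48.4%, 1 CpG) held no CCAAT, which 12.3% of windows cut likewise to its length hold. The Cdh9 window lies directly before its annotated gene start. The first bases of the other windows need not lie as near a start, so the shares are not a like comparison. In the Cdh20 window (GC 47.6%, 10 CpG) 2 overlapping matches, 1 on each strand, were found, and 33.9% of windows of its length hold at least 1. Neither TATAAA nor GGGCGG, searched on both strands, occurred in any of the 3.

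The family was strongly divided by cell class, and the division was alike in both libraries. At a level of at least 1 per 10000 in both libraries in at least 1 class stood 20 of the 34 members, and 19 of these 20 had their highest class in common between the libraries. The exception was Cdh6, a type II cadherin, which was highest in oligodendrocyte precursor-like cells of the wild-type library (1.59) and in Cajal-Retzius-like cells of the knock-in library (1.65). The 20 were picked by their level in both libraries, and the classes were made from both libraries together. Such agreement was not counted over all genes, so it is not shown to be particular to this family. The profiles of the 20 members are shown in the heat map of levels by class.

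**Figure D1:**
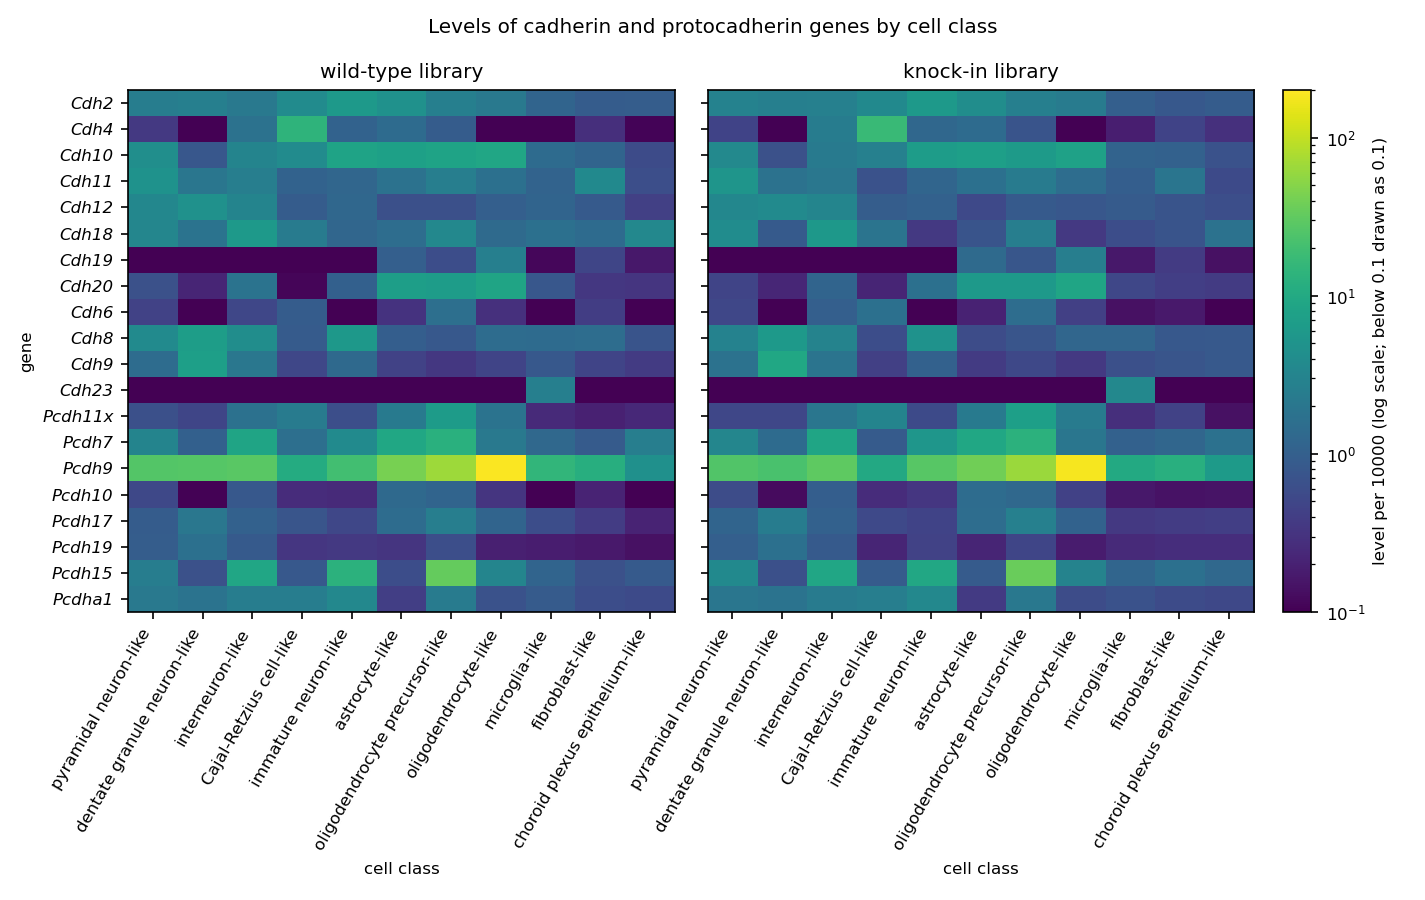
Level per 10000 (colour, log scale) of the 20 members at 1 or more in both libraries in a class, by gene (rows) and cell class (columns), with the wild-type library on the left and the knock-in library on the right. Pcdh9 in oligodendrocyte-like cells (189 and 183) and Cdh4 in Cajal-Retzius-like cells (14.2 and 17.4) stand out alike in both libraries.

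Among type I cadherins, Cdh2 (N-cadherin, the main neural member) was present in every class, from 0.916 in fibroblast-like to 6.16 in immature neuron-like cells of the wild-type library. In the knock-in library its level in immature neuron-like cells was also 6.16. It was higher in CA3-like than in CA1-like cells, at 3.87 against 1.69 in the wild-type library and 3.91 against 1.87 in the knock-in library. Cdh4 (R-cadherin) was 14.2 and 17.4 per 10000 in Cajal-Retzius-like cells of the wild-type and knock-in libraries, and next highest in interneuron-like cells at 1.75 and 2.42. Cajal-Retzius cells are early-born, reelin-producing neurons of the hippocampal margin. Cdh3 (P-cadherin) reached 1.08 in choroid plexus epithelium-like cells of the wild-type library and 0.545 in those of the knock-in library. Cdh1 (E-cadherin) stayed at or below 0.271 in all named classes, but its level was 2.33 and 3.83 in an unnamed cluster (24 and 87 cells) whose leading genes were Slc47a1 and Bnc2.

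The type II cadherins, which are known for selective expression in neuronal populations, divided the subfields. Cdh9, which takes part in the synapses that dentate granule cells make on CA3 neurons, had a level of 7.36 and 9.27 in dentate granule-like cells of the wild-type and knock-in libraries. In CA3-like cells it was 4.86 and 6.16, while in CA1-like cells it was 0.238 and 0.323. The order granule, CA3, cortex-like (2.27 and 1.33), CA1 was the same in both libraries. The cells with a Cdh9 value above 0 made up 96.8% of wild-type and 97.3% of knock-in granule-like cells, against 13.5% and 16.9% of CA1-like cells. With every cell thinned at random to 1000, the shares were 51.4% and 57.0% in granule-like and 2.45% and 2.84% in CA1-like cells, in the same order. Cdh24, which did not reach 1 per 10000 in any class, was higher in CA3-like (0.895 and 1.12) than in CA1-like cells (0.215 and 0.253).

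Cdh8 was likewise highest in dentate granule-like cells, at 6.78 in wild-type and 5.99 in knock-in cells, and it was 0.298 and 0.292 in the cortex-like cluster. For Cdh12 the granule-like level was 4.62 and 3.82 and the cortex-like level 0.625 and 0.784. Cdh11 went the other way, with 1.96 and 1.75 in granule-like cells against 4.61 and 4.96 in CA1-like, 5.33 and 5.95 in CA3-like and 5.71 and 5.79 in cortex-like cells. Cdh10 was lower in granule-like cells (0.776 and 0.654) than in CA1-like (5.31 and 4.52) or CA3-like cells (2.85 and 2.52). Each subfield thus carried its own mixture of type II members, and that mixture was recognisable in both libraries in the bar plot of 6 type II cadherins by subfield.

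**Figure D2:**
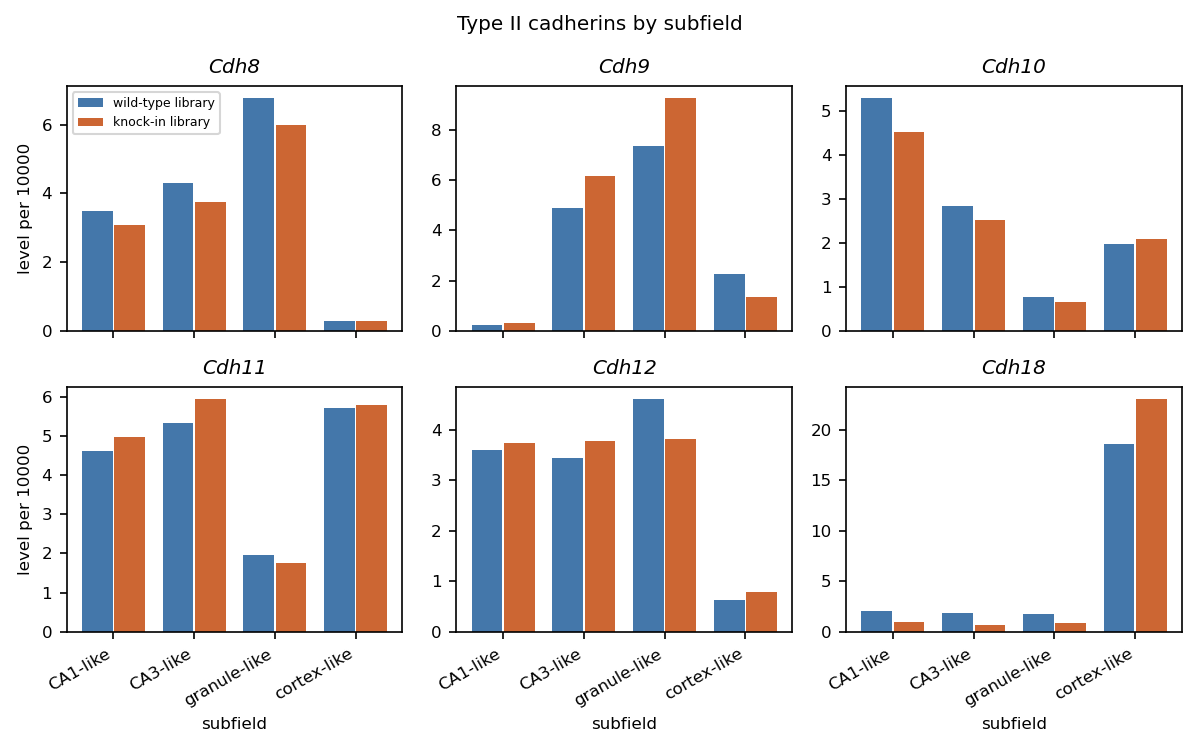
Level per 10000 (bars from 0) of 6 type II cadherins in CA1-like, CA3-like, dentate granule-like and cortex-like cells, blue for the wild-type and orange for the knock-in library, 1 library each. Cdh8, Cdh9 and Cdh12 are highest in granule-like cells, Cdh10 in CA1-like cells and Cdh18 in cortex-like cells, where it is 18.5 and 23.1.

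Other type II cadherins were high in glia-like classes. Cdh20 was 8.48 and 8.85 in oligodendrocyte-like, 7.02 and 6.14 in astrocyte-like and 6.67 and 5.91 in oligodendrocyte precursor-like cells, against 0.219 and 0.227 in granule-like cells. Cdh10 had its highest level in oligodendrocyte-like cells (9.07 and 7.64), followed closely by immature neuron-like (8.26 and 6.60) and oligodendrocyte precursor-like cells (8.25 and 6.35). Cdh19 was confined among the compared classes to glia at a level of 1 or more, at 2.67 and 2.59 in oligodendrocyte-like and 1.01 and 1.38 in astrocyte-like cells. Cdh5 (VE-cadherin, an endothelial junction protein) was 1.03 and 0.670 in the endothelial-like cells, of which there were only 25 and 43. In fibroblast-like cells it was 0.565 and 0.703, so in the knock-in library it was not highest in endothelial-like cells.

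Of the other cadherins, only Cdh23 reached 1 per 10000. Cdh23, which with Pcdh15 forms the tip link of sensory hair cells, was 2.69 and 3.49 in microglia-like cells and at most 0.0862 and 0.0890 in every other compared class. This value is uncertain. Vsir, an immune checkpoint gene on the plus strand at chr10:60346851-60372684, lies within Cdh23, which is on the minus strand. Vsir itself was 3.69 and 4.31 in microglia-like cells and 0.0269 and 0.0417 in all other cells, the same profile, and the strand setting of the counting is not given in the sources used here. Reads of the 2 genes were not told apart here.

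Among delta-1 protocadherins, Pcdh9 was present in all 11 classes, from 4.47 in choroid plexus epithelium-like to 189 in oligodendrocyte-like cells of the wild-type library. In the knock-in library the corresponding levels were 6.37 and 183. Pcdh7 was highest in oligodendrocyte precursor-like cells (12.3 and 13.1), then in astrocyte-like (9.34 and 9.36) and interneuron-like cells (8.39 and 8.78). Pcdh11x, encoded on the X chromosome, was also highest in the precursors, at 6.54 and 7.36. These precursors divide throughout life and give rise to myelinating cells.

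Of the delta-2 members, Pcdh17, found at presynaptic contacts, had a level of 2.56 and 2.77 in oligodendrocyte precursor-like cells and 2.01 and 2.44 in granule-like cells. Pcdh10 reached 1.34 and 1.49 in astrocyte-like cells. For Pcdh19, an X-linked gene whose variants cause a form of epilepsy, granule-like cells had 1.66 and 1.63, and CA1-like cells 1.21 and 1.33. Pcdh8 and Pcdh18 did not reach 1 in any class.

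Pcdh15, a non-clustered member outside the delta groups, was 33.3 and 34.9 in oligodendrocyte precursor-like cells. Immature neuron-like cells had 13.1 and 9.51, interneuron-like cells 9.04 and 9.02 and the cortex-like cluster 10.3 and 13.0. In granule-like cells it was 0.660 and 0.643. The single row of the clustered group, Pcdha1, was highest in immature neuron-like cells (3.44 and 3.46) and lowest in astrocyte-like cells (0.413 and 0.361). The alpha genes share their last exons and several annotated genes overlap Pcdha1, so this row may hold reads of several alpha genes. Gm42416, an overlapping gene on the same strand, had a row of its own. It was 8.31 and 7.77 in immature neuron-like cells and 4.57 and 4.22 in all other cells, above Pcdha1.

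Between the libraries, most members differed little. A member was counted as different by a rule of size: a log2 ratio, knock-in over wild-type, of 1 or more in absolute size after adding 0.1 to each level, which shrinks the ratios of low genes, a level of 1 or more in 1 library and a value above 0 in 10% or more of its cells there. Over the 11 classes, 120 combinations of a member and a class reached the level and share limits, from 21 members, and 4 passed the rule. Cdh18 made up 3 of these and Pcdh15 the fourth. Without Cdh18 there were 109 combinations, of which 95 lay within 0.5 on the log2 scale, and their median absolute log2 ratio was 0.19. The same figures were not computed for all genes, so they do not show whether the members were steadier than others. The plot of log2 ratios by class shows Cdh18 apart from the cloud of other members.

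**Figure D3:**
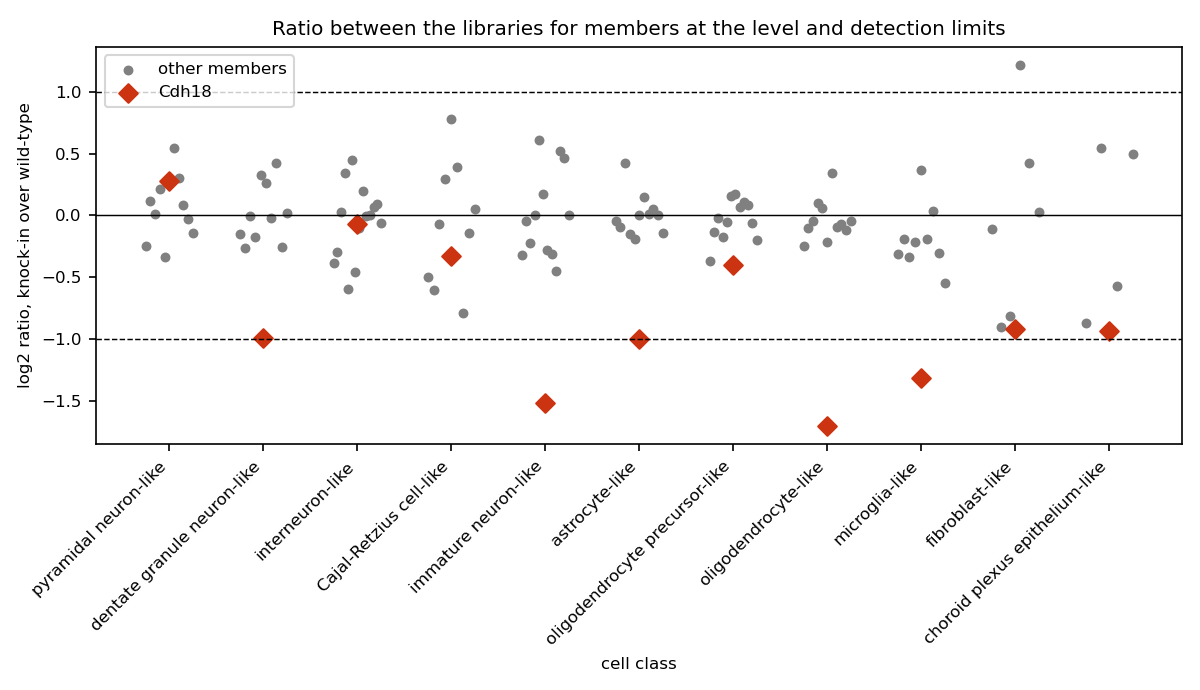
Log2 ratio of knock-in over wild-type for each member that reached the level and share limits in a class, with Cdh18 as red diamonds and the other members as grey points; dashed lines mark the size rule. Cdh18 lies at -1.52, -1.70 and -1.32 in immature neuron-like, oligodendrocyte-like and microglia-like cells and at 0.27 in pyramidal neuron-like cells.

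Cdh18, a type II cadherin on chromosome 15, was lower in the knock-in library in 10 of 11 classes. So were Cdh8, Cdh10 and Cdh11, and this count was not made over all genes. The median log2 ratio of all tested genes lay below 0 in every class, from -0.149 in choroid plexus epithelium-like to -0.004 in immature neuron-like cells. In oligodendrocyte-like cells the Cdh18 level was 1.37 in wild-type and 0.352 in knock-in cells (log2 ratio -1.70). There, 1 of 12 members tested was lower by the rule, against 0.203% of all genes tested. In microglia-like cells it was 1.67 and 0.611 (-1.32), 1 of 10 members against 0.165% of all genes. In immature neuron-like cells it was 1.21 and 0.357 (-1.52), 1 of 13 members against 0.41% of all genes, over only 68 and 95 cells. Cdh18 was named when the group was chosen, with results of these data known, so these values describe it and test nothing. With 0.5 in place of 0.1 added to the levels, the ratio was -0.9988 in immature neuron-like and -0.97 in microglia-like cells, and only the oligodendrocyte-like class passed.

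Several classes lay near the limit of the rule. Astrocyte-like cells had a Cdh18 level of 1.53 and 0.717 (log2 ratio -0.9965), dentate granule-like cells 1.79 and 0.851 (-0.99), and fibroblast-like cells 1.44 and 0.713 (-0.92). The granule-like ratio was -1.09, past the rule, with each cluster weighted by its pooled cell number, alike in both libraries. In choroid plexus epithelium-like cells the levels were 3.49 and 1.78 (-0.94). That class joined 2 clusters that differed in Cdh18, at 6.58 and 5.75 in 1 cluster (40 and 21 cells) and 1.25 and 0.547 in the other (62 and 70 cells). With each cluster weighted by its pooled cell number, alike in both libraries, the ratio of this class was -0.41. Without such weights, the ratio was nearer 0 in oligodendrocyte precursor-like cells (3.44 and 2.58, -0.40), Cajal-Retzius-like cells (2.34 and 1.85, -0.33) and interneuron-like cells (5.99 and 5.72, -0.07). The interneuron-like class joined cluster 14, with 82 and 223 cells and levels of 12.1 and 9.92 (-0.28), and cluster 15, with 158 and 255 cells and levels of 2.83 and 2.11 (-0.41). With the same weights by pooled cell number in both libraries, the interneuron-like ratio was -0.31.

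**Figure D4:**
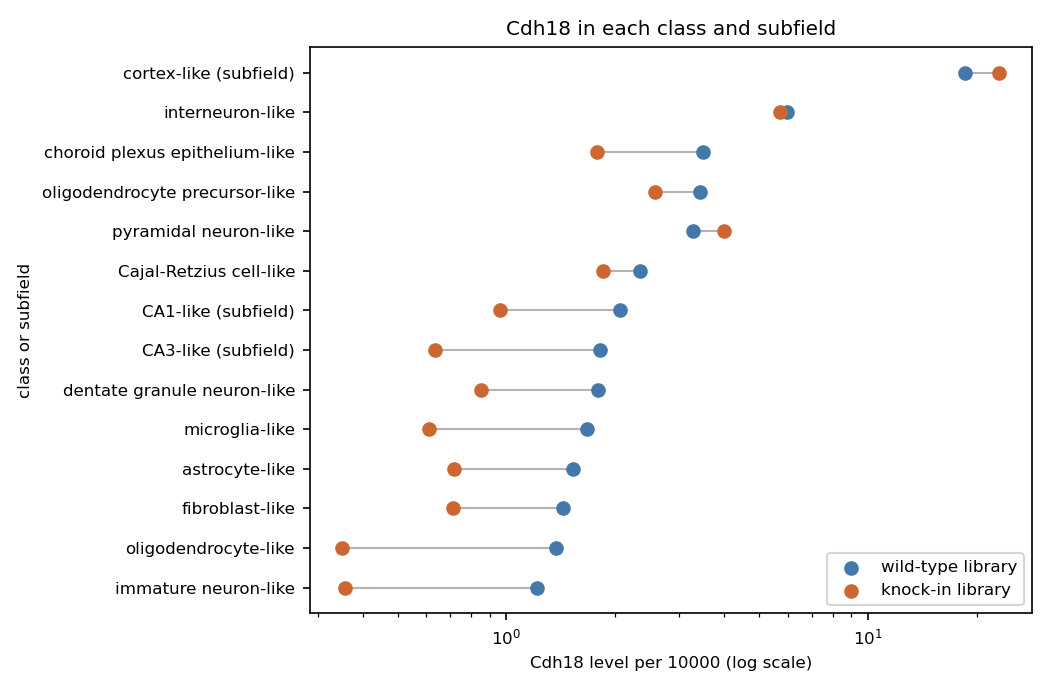
Cdh18 level per 10000 (log scale) in each class and pyramidal subfield, blue for the wild-type and orange for the knock-in library, ordered by the wild-type level. The knock-in level lies below the wild-type level in every class or subfield drawn except the cortex-like cluster (18.5 and 23.1) and the pyramidal-like class that contains it (3.29 and 4.00).

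The pyramidal-like class joined cells with differences in opposite directions. CA1-like cells had 2.06 in wild-type and 0.960 in knock-in cells (log2 ratio -1.03), where 1 of 12 members was lower by the rule against 0.16% of all genes. The CA1-like ratio was -0.81 with 0.5 added and -0.98 when centred on the median of the tested genes, both short of the rule. CA3-like cells had 1.82 and 0.635 (-1.38), 1 of 12 members against 0.352% of all genes. In the cortex-like cluster, Cdh18 was 18.5 and 23.1 (0.31), and no member passed, against 1.53% of all genes in either direction. The whole pyramidal-like class gave 3.29 and 4.00 (0.27), and without the cortex-like cluster 1.98 and 0.882 (-1.09). With each cluster weighted by its pooled cell number, alike in both libraries, the ratio of the whole class was -0.19. It was 0.04 with 15 principal components, a setting that formed no cortex-like group of its own. The share of cortex-like cells, given above, was higher in the knock-in library.

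Over the 32 clusters with at least 20 cells in each library, named or not, Cdh18 was lower in the knock-in library in 31. In the 28 clusters with a wild-type level under 4, the wild-type level ran from 1.06 to 3.44 and the knock-in level from 0.298 to 2.58. There the knock-in level minus the wild-type level ran from -1.20 to -0.43, with a median of -0.84, and the log2 ratio had a median of -0.97. In the other 4 clusters, with wild-type levels from 6.58 to 18.5, the log2 ratio ran from -0.45 to 0.31. The limit of 4 was chosen after the values were seen. Among 1697 genes with a median wild-type level of at least 1 over these clusters, 12 (0.707%) were lower in at least as many clusters as Cdh18, itself included. The median log2 ratio of Cdh18 over the 32 clusters was -0.88, and 4 genes (0.236%) had one as low, namely Abl1, Cdh18, Sec22b and Tshz2, which were named after their values were seen. Among the other members, Cdh8 was lower in 29 of the 32 clusters with a median log2 ratio of -0.21, Cdh10 in 24 (-0.20), Pcdh9 in 23 (-0.14), Pcdha1 in 21 (-0.08), Cdh11 in 20 (-0.06), Cdh12 in 19 (-0.13), Pcdh7 in 15 (0.02), Pcdh15 in 12 (0.12) and Cdh2 in 10 (0.03). The median over the 1697 genes was 21 clusters and a log2 ratio of -0.08. As many clusters as for Cdh8 were reached by 3.36% of these genes, and as many as for Cdh10 by 32.2%.

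The same Cdh18 values can be described per cell, which adds no independent evidence. Values of 3 or more were seen in 13.5% of wild-type oligodendrocyte-like cells (exact 95% interval 11.8 to 15.3) and in 2.06% (1.39 to 2.93) of knock-in cells. In CA1-like cells these shares were 31.5% (28.4 to 34.8) and 10.8% (8.94 to 13.0), and in CA3-like cells 25.8% (21.0 to 31.0) and 4.93% (2.95 to 7.68). In the cortex-like cluster they were 97.1% (91.9 to 99.4) and 95.5% (91.9 to 97.8). These intervals cover only the sampling of cells within a library, for values as deposited, and neither the correction for depth nor the spread between mice or libraries. After thinning to a total of 1000, Cdh18 was above 0 in 11.8% of wild-type and 2.95% of knock-in oligodendrocyte-like cells, from 52.6% and 15.1% before thinning. The bar plot of Cdh18 values per cell gives these shares for 7 populations.

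**Figure D5:**
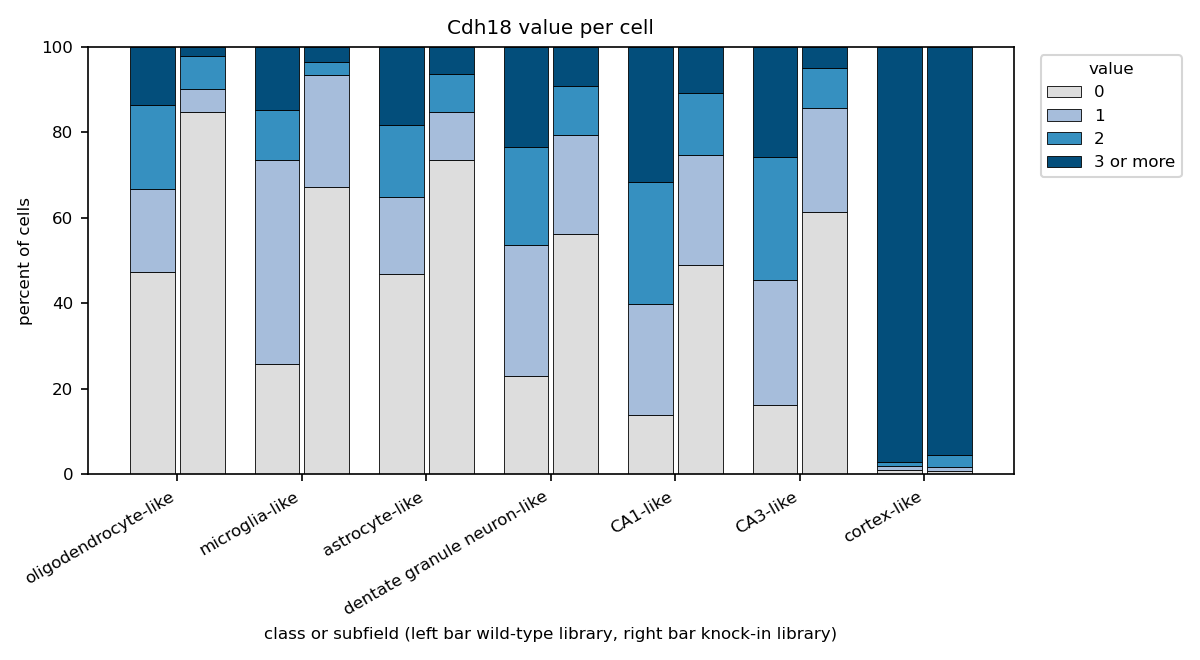
Percent of cells with a Cdh18 value of 0, 1, 2 and 3 or more (shades from light to dark) in 7 classes or subfields, with the wild-type library as the left bar and the knock-in library as the right bar of each pair. The share at 0 is larger in the knock-in library in 6 of the 7, for example 47.4% against 84.9% in oligodendrocyte-like cells, and is under 1% in both libraries in the cortex-like cluster.

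Detected genes moved with library too, with medians of 2498 per wild-type and 2923 per knock-in microglia-like cell. Among the 25% of microglia-like cells with the fewest genes, Cdh18 was above 0 in 82.6% of wild-type and 56.2% of knock-in cells, and among the 25% with the most in 70.7% and 29.2%. In oligodendrocyte-like cells, with medians of 2217 and 2249.5 genes, these shares were 48.4% and 17.0% among cells with the fewest genes and 53.1% and 12.6% among those with the most. No class of the wild-type library lacked Cdh18, the lowest level being 1.21, so no population served as a blank, and the part of RNA from outside the cells was not tested. The summed level of the 9 pyramidal markers, which was 48.9 and 51.2 in pyramidal-like cells, was 10.1 in wild-type and 8.89 in knock-in microglia-like cells (4 of 9 higher) and 7.93 and 7.73 in oligodendrocyte-like cells (5 of 9 higher), with none at 0. The 9 cortex markers went the other way, at 15.9 and 17.7 in microglia-like cells (7 of 9 higher). In oligodendrocyte-like cells they summed to 4.07 and 4.19 (6 of 9 higher). Cdh18 was highest in the cortex-like cluster.

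Cdh18 lies at chr15:22549022-23474418 on the plus strand (GENCODE M21, GRCm38), the last of 5 type II members on chromosome 15. The others are Cdh6 at chr15:13028701-13173675 (minus), Cdh9 at chr15:16728756-16857094 (plus), Cdh10 at chr15:18818947-19014236 (plus) and Cdh12 at chr15:20449265-21589533 (plus). None of these 4 passed the size rule in a compared class. Cdh12, its nearest neighbour among the members, was 0.995 and 0.782 (-0.31) in oligodendrocyte-like and 1.15 and 0.885 (-0.34) in microglia-like cells.

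Pcdh15 was the only member higher by the rule, in fibroblast-like cells, at 0.656 in wild-type and 1.66 in knock-in cells (log2 ratio 1.22). That is 1 of 7 members tested there, against 0.381% of all genes that were higher. The share of cells above 0 was 23.9% (exact 95% interval 16.2 to 33.0) of 109 and 27.0% (21.6 to 33.0) of 248 cells, and at 3 or more 3.67% and 6.45%. The ratio was 0.90 with 0.5 added and 0.98 with called doublets left out, both short of the rule. The 8 markers of oligodendrocyte precursors, the class in which Pcdh15 is highest, summed to 6.40 and 5.38 in fibroblast-like cells, with 3 of 8 higher and none at 0. In the same cells Cdh11 was 3.65 and 1.91 (-0.90) and Cdh8 1.51 and 0.816 (-0.82), both short of the rule.

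In the other 7 classes no member passed. There the share of all tested genes that passed in either direction was 0.868% in pyramidal neuron-like, 0.301% in dentate granule-like, 0.62% in interneuron-like, 1.7% in Cajal-Retzius-like, 0.745% in astrocyte-like, 0.399% in oligodendrocyte precursor-like and 3.73% in choroid plexus epithelium-like cells. Over all cells, 14 members were tested and none passed, against 0.289% of all genes. The median log2 ratio of these 14 was -0.04, beside -0.08 for all 2075 genes tested. Never reaching the limits in any class were 13 members: Cdh1, Cdh5, Cdh7, Cdh16, Cdh17, Cdh22, Cdh24, Cdh26, Pcdh1, Pcdh8, Pcdh12, Pcdh18 and Pcdh20.

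Partner genes were examined in 5 lists, and no gene of any list passed the size rule in all cells or in any class. Over all cells, 0.289% of all tested genes passed. With the few list genes that reached the limits, passing none does not set the lists apart from all genes. Of 15 catenins and junction partners, 8 reached the limits over all cells, with a median log2 ratio of -0.05. Magi2, a junctional scaffold, was 36.9 and 30.1 and Ctnna2, the neural alpha-catenin that ties cadherins to actin, 13.2 and 12.5. Of 17 other members of the cadherin superfamily, 3 reached the limits (median -0.15). Clstn2, a calsyntenin of the postsynaptic membrane, was 6.92 and 5.76 and Fat3, a giant atypical cadherin, 4.19 and 3.77.

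Among 10 protocadherin partners, 9 reached the limits (median -0.12). Ptk2, the focal adhesion kinase, was 5.58 and 5.18 and Nckap1, a subunit of the WAVE complex, 3.39 and 3.03. Of 9 regulators of the clustered genes, 3 reached the limits (median -0.09), with the cohesin loader Nipbl at 2.68 and 2.44 and the cohesin release factor Wapl at 1.44 and 1.34. Of 7 proteases that cut cadherins, 1 did, the shedding enzyme Adam10 at 1.38 and 1.24 (-0.15). The median over all genes tested was -0.08 in the same cells.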

How the data were processed

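Droplet libraries of hippocampal cells, 1 wild-type and 1 Pigv341E homozygous knock-in, were analysed. The authors deposited 1 table of whole numbers for 30223 genes and 15930 cells. Its values were treated as a score, since the deposited name and the narrow band of cell totals are those of a depth-corrected assay. Seurat 3.0.0 and GRCm38 are named per the submitters' processing notes. The aligner, cell filter, doublet removal and strand setting are not given in the sources used here, and 0 columns belonged to no sample.

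Cells were clustered with scanpy 1.11.5 (igraph 0.11.9, numpy 2.4.6, Python 3.11.15) on 2000 variable genes without sex-linked, cadherin and protocadherin genes, with 30 principal components, 15 neighbours and Leiden resolution 1. A marker counted when at least 25% of a cluster's cells were above 0 and its level was 1.5-fold that of other cells, and a name needed 3. Clusters with 3 or more mitochondrially encoded genes among their 10 leading genes stayed unnamed. So did clusters whose leading genes held more markers of another class than of their best class. A rival class at 60% of the markers also left a cluster unnamed. The same went for under 40% of a class's markers with none among the leading genes. In all, 9 clusters (1899 cells) stayed unnamed. This naming rule was set after clusters were seen. Doublets and all cells were kept. Scrublet, set to expect 6%, marked 61 wild-type (0.86%) and 209 knock-in cells (2.37%).

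The members, the lists and the size rule were chosen with earlier results of these data known. Genes named are Cdh18, members past the size rule, members at 1 per 10000 or more in a class in both libraries and, per list, the 2 of highest level. 1 list gene that this rule names is not reported here. Other genes were named after their values were seen. Level and ratio steps were tested on simulated data. Shares carry exact Clopper-Pearson 95% intervals. Of the 34 members, 21 had a RefSeq promoter window.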

Additional observations from a re-analysis of the deposited data

Results flagged for a closer look

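Cdh18 was flagged in 2 groups of cells because its log2 ratio of knock-in over wild-type was above 0 there, while it was below 0 in the classes past the size rule. The ratio was 0.27 in pyramidal neuron-like cells and 0.31 in the cortex-like cluster that is part of them. Pcdh15, which was higher in knock-in fibroblast-like cells, had a log2 ratio of -0.45 in immature neuron-like cells, with levels of 13.1 in wild-type and 9.51 in knock-in cells. With 1 library per genotype, none of these differences between classes was tested.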

How the results depend on the processing

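The counts of members past the size rule depended on the processing. They were recomputed under 13 alternatives, 12 planned and 1, leaving out the shared barcodes, chosen after seeing the data. With 0.5 added to the levels, 1 of the 4 combinations of member and class passed, Cdh18 in oligodendrocyte-like cells, so 1 was lower and 0 were higher, and Cdh18 passed in 1 class instead of 3. With 0.01 added, 5 were lower, all Cdh18. With values of 1 set to 0, 10 passed, 7 lower and 3 higher, 5 of them Cdh18. The others were Pcdh15 in fibroblast-like and choroid plexus epithelium-like cells, Cdh3 in choroid plexus epithelium-like, Cdh6 in interneuron-like and Pcdh7 in Cajal-Retzius-like cells. The share of all genes past the rule was not computed under the alternatives, so these counts have no background. With doublets left out, 5 were lower, all Cdh18, and 0 were higher, with Pcdh15 in fibroblast-like cells at 0.98. No ratio that passed changed sign. Under all 13, Cdh18 passed in oligodendrocyte-like (-1.93 to -1.14) and CA3-like cells (-1.77 to -1.03). Its ratio in astrocyte-like cells passed in 7 of 13 (-1.09 to -0.74) and in CA1-like cells missed in 2, at -0.81 with 0.5 added and -0.98 when centred on the class median. Clusters were also weighted by their pooled cell number, alike in both libraries. The Cdh18 ratio was then -0.19 in pyramidal-like, -0.31 in interneuron-like and -0.41 in choroid plexus epithelium-like cells. In dentate granule-like cells it was -1.09 with these weights. The granule-like ratio passed the rule in 3 of 13 alternatives (-1.12 to -0.76). With 15 principal components neither an immature neuron-like class nor a cortex-like group formed, and the pyramidal-like ratio was 0.04. With 0.5 added, the Cdh18 ratio was -0.9988 in immature neuron-like and -0.97 in microglia-like cells, both short of the rule. No paired analysis was possible because each genotype is 1 library. Raw depth is unknown, so the intervals on shares of cells do not cover the error of counting molecules.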
